A study of Bos taurus with 18 samples.

Results

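The cells studied here came from the milk of 6 dairy cows with mastitis, an inflammation of the udder, and the arrays of these cows were placed in order by the level of 3 neutrophil genes, CXCR1, S100A8 and S100A9. The arrays were chosen by title, and their order by the measured values of the 3 genes. They were the 6 arrays titled as mastitis among the 18 arrays of the series, which also holds 6 arrays from healthy cows and 6 from cows with endometritis. Each array measured the RNA of the milk cells of 1 cow on an Affymetrix bovine genome array. The cows with mastitis were in lactation 1 to 8 and between 10 and 220 days after calving. Their age, the pathogen, the severity and duration of the mastitis and any treatment were not given in the sources used here, and no sort or gate of the cells is named. The cows are called mastitis 1 to mastitis 6, a numbering without order.

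Neutrophils are the phagocytes that leave the blood in the largest numbers when bacteria enter the udder. They follow chemokines such as interleukin 8 through receptors that include CXCR1, and they carry the calcium-binding proteins S100A8 and S100A9, which together form calprotectin, in their cytosol. Milk of an inflamed udder also holds macrophages, which take up debris and lipid and present antigen, as well as lymphocytes and shed secretory epithelial cells. The proportions of these cells differ between cows and over the course of an infection.

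The neutrophil score of an array was the mean log2 value of CXCR1, S100A8 and S100A9. In order from the lowest score it was 9.89 on mastitis 3, 10.04 on mastitis 5, 11.46 on mastitis 6, 11.46 on mastitis 1, 11.92 on mastitis 4 and 12.45 on mastitis 2. The mean was 11.20 ± 1.03 (SD, n = 6). The arrays did not lie evenly along the score. Mastitis 3 and mastitis 5 formed a low pair, and the gap of 1.42 between them and the other 4 arrays made up 55.3% of the whole range of 2.57. Mastitis 6 and mastitis 1 differed by only 0.00105, so that their order carries no weight. A rank correlation along this score therefore largely sets the low pair against 4 higher arrays, and a relation among those 4 arrays alone can hardly be tested.

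The score genes did not place the cows in the same order. CXCR1, the chemokine receptor, read 10.23, 9.09, 10.53, 10.84, 10.74 and 12.03 on mastitis 3, 5, 6, 1, 4 and 2, the order of the score, which is used for every series of values below. S100A8 read 10.76, 11.50, 12.71, 12.70, 13.32 and 13.29. S100A9 read 8.66, 9.54, 11.15, 10.86, 11.70 and 12.04. Both S100 genes were lowest on mastitis 3, whereas CXCR1 was lowest on mastitis 5. S100A8 and S100A9 followed each other closely (Pearson r = 0.993, n = 6), and CXCR1 followed them less closely (r = 0.695 with S100A8 and 0.733 with S100A9). These values define the score and are given as a description. A second probe set for S100A9 differed from the one used by at most 0.382 on any array.

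**Figure D1:**
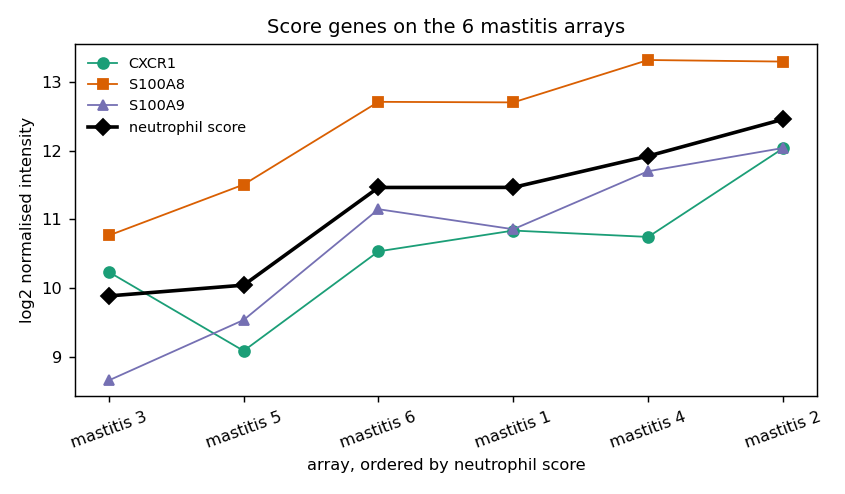
Log2 normalised intensity of CXCR1, S100A8 and S100A9 and their mean, the neutrophil score, on the 6 mastitis arrays in order of the score. Mastitis 3 (9.89) and mastitis 5 (10.04) sit apart from the other 4 arrays, and CXCR1 dips on mastitis 5 where the S100 genes do not.

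Of the 9155 genes named on the array, 6255 other than the score genes had a mean over the 6 mastitis arrays above 2.55, the median of all deposited values, and were tested for a slope on the score. A slope is the change in log2 value for each log2 unit of the score. In limma, with p-values adjusted over all genes tested by the Benjamini-Hochberg method, 0 genes rose (0% of those tested) and 2 fell (0.032%), PDLIM4 and ACSF2. At an unadjusted p under 0.05 there were 288 genes with a positive and 1137 with a negative slope. Spearman's rho with the score was at least 0.9 for 66 genes (1.06% of the 6251 genes whose values vary) and at most -0.9 for 278 genes (4.45%). A perfect order was seen for 8 genes that increased from array to array (0.128%) and 46 that decreased (0.736%). None of these ranks passed correction in the exact two-sided permutation test over the 720 orders of the arrays, in which the smallest possible p is 0.00278 and the smallest adjusted p was 0.31. The counts by rho are thus descriptions of these 6 arrays.

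The balance between genes reading higher and lower with the score was not fixed by the data. The median slope of all tested genes was -0.08, the median rho was -0.37, and 64.7% of slopes were below 0. With each array centred on the median of its tested genes the median slope became 0.07 and 39.3% of slopes were below 0, and 3 genes rose and 10 fell. With arrays shifted to equal hybridisation controls the median slope was -0.15, 75.3% of slopes were below 0, and 0 genes rose and 5 fell. At rho beyond 0.9, centring gave 185 genes in the higher and 132 in the lower direction, and the hybridisation controls gave 28 and 12. Of these, 42 and 98 after centring and 3 and 0 with hybridisation controls were shared with the counts above. Gene groups below are therefore read against the median of all genes. In bulk RNA of mixed cells, fewer cells of a type and less RNA per cell cannot be told apart.

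PDLIM4, a PDZ and LIM domain protein that binds the actin cytoskeleton, read 5.64, 5.42, 3.65, 3.41, 2.79 and 2.43 from the lowest to the highest score. It fell by 1.30 for each unit of the score (SE 0.08, limma adjusted p 0.0163), and the highest-scoring array lay at the floor of the values. ACSF2, a mitochondrial acyl-CoA synthetase, read 5.29, 5.21, 3.72, 3.64, 3.30 and 2.56, with a fall by 1.05 per unit (SE 0.06, limma adjusted p 0.0163). ACSF2 lay outside the rule for named genes and was named after its value was seen. Both genes were high on the low pair and near background on mastitis 2. Among the 4 higher-scoring arrays the Pearson r was -0.96 for PDLIM4 and -0.99 for ACSF2. These arrays are part of the 6 that gave the calls, so these values are a description and not a separate test. Neither call held when any single array was left out, where the adjusted p of both lay between 0.0544 and 0.275. Without mastitis 4, C1QA was called instead, at an adjusted p of 0.037.

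The genes with the largest positive slopes among those at a rho of at least 0.9 included receptors and enzymes of myeloid cells. FCN1, a secreted lectin of monocytes and granulocytes that recognises bacterial surfaces, read 7.45, 8.27, 10.28, 10.85, 11.57 and 11.30. Its slope was 1.59 (SE 0.20, limma adjusted p 0.0748). THBD, the thrombin receptor thrombomodulin, read 7.28, 7.75, 9.07, 10.43, 9.73 and 11.11, with a slope of 1.37 (SE 0.21, adjusted p 0.0755). On both genes all 4 higher-scoring arrays lay above the low pair by more than 1 log2 unit. Neither passed the threshold in this fit over the 6 arrays. With arrays centred on the median of tested genes FCN1 passed at a limma adjusted p of 0.0371. It also passed, at 0.0313, among genes with a mean at least 1 above the median.

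ALOX5AP, which helps 5-lipoxygenase to make leukotrienes, read 7.01, 7.89, 8.12, 8.90, 10.61 and 9.28. TNFRSF1B, a receptor for tumour necrosis factor, read 3.71, 3.97, 4.96, 5.60, 6.16 and 5.81. S100A12, a further calcium-binding protein of granulocytes, read 11.31, 11.83, 12.79, 13.02, 13.40 and 13.08. All 3 were lowest on the low pair and highest on mastitis 4 rather than on mastitis 2. Their slopes were 0.98, 0.92 and 0.74, with limma adjusted p-values of 0.164, 0.0794 and 0.0967. The remaining genes of the 12 with the largest positive slopes were GPAT3, AMPD2, NFIL3, CSGALNACT2, CREM, RAB31 and SLC25A37. Their slopes ran from 0.70 for SLC25A37, a mitochondrial iron carrier, to 0.92 for GPAT3, a glycerol-phosphate acyltransferase of triglyceride synthesis. NFIL3 and CREM are transcription factors with a basic leucine zipper, and they read 9.40 to 11.74 and 6.79 to 9.42 over the arrays.

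The genes most like the score were the 8 with a rho of 1 over the 6 arrays. In order of Pearson r they were KAT2B, AMPD2, NECAP1, ZYX, IK, FEM1C, BLTP3B and RBM22. AMPD2, an AMP deaminase, had the largest slope of these, 0.82 (SE 0.11, limma adjusted p 0.0748), and read 3.38, 4.13, 4.78, 4.85, 5.33 and 5.84. With arrays centred on the median of tested genes AMPD2 passed at a limma adjusted p of 0.0451. KAT2B, a histone acetyltransferase, read 6.57, 6.88, 7.35, 7.60, 7.76 and 7.93. ZYX, the focal adhesion protein zyxin, covered only 3.97 to 4.66. Perfect rank order thus went with ranges from below 1 log2 unit to more than 2. When mastitis 1 and mastitis 6 were treated as tied in the score, an alternative chosen after seeing the data, 60 genes had a rho of at least 0.9 and 268 of at most -0.9, and 37 and 217 of these were shared with the counts above.

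**Figure D2:**
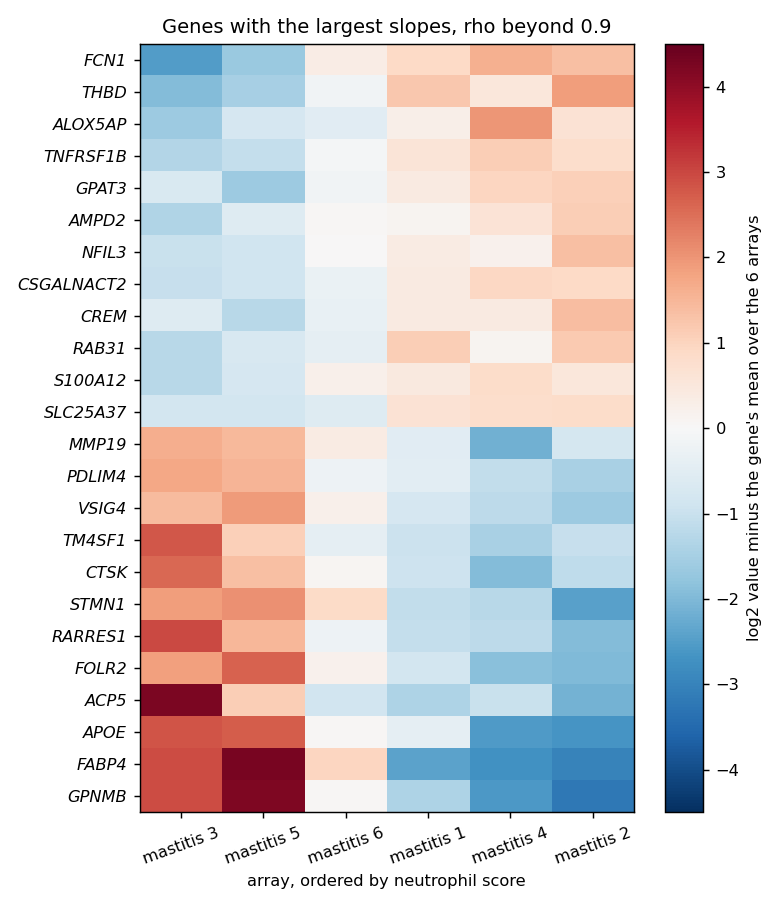
Log2 value minus each gene's mean over the 6 mastitis arrays, for the 12 genes with the largest positive and the 12 with the largest negative slope among genes with a rho beyond 0.9, with arrays in order of the score. The colour changes mainly between mastitis 5 and mastitis 6 or 1, and FABP4 and GPNMB show the widest range.

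The largest negative slopes were those of genes known from macrophages. GPNMB, a lysosomal glycoprotein of lipid-laden macrophages, read 8.58, 9.85, 5.71, 4.26, 3.06 and 2.43. FABP4, a fatty acid carrier of adipocytes and macrophages, read 8.41, 9.74, 6.43, 3.06, 2.77 and 2.47. APOE, the apolipoprotein through which macrophages export cholesterol, read 9.81, 9.72, 7.04, 6.60, 4.44 and 4.32. The low pair read highest on all 3 genes, mastitis 6 and mastitis 1 lay between, and mastitis 4 and mastitis 2 read lowest. The slopes were -2.82 (SE 0.32), -2.81 (SE 0.52) and -2.29 (SE 0.22), with limma adjusted p-values of 0.0748, 0.0977 and 0.0748. GPNMB and APOE passed with arrays centred on the median of tested genes, each at an adjusted p of 0.0169, and APOE with limma's trend and robust options at 0.0459.

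**Figure D3:**
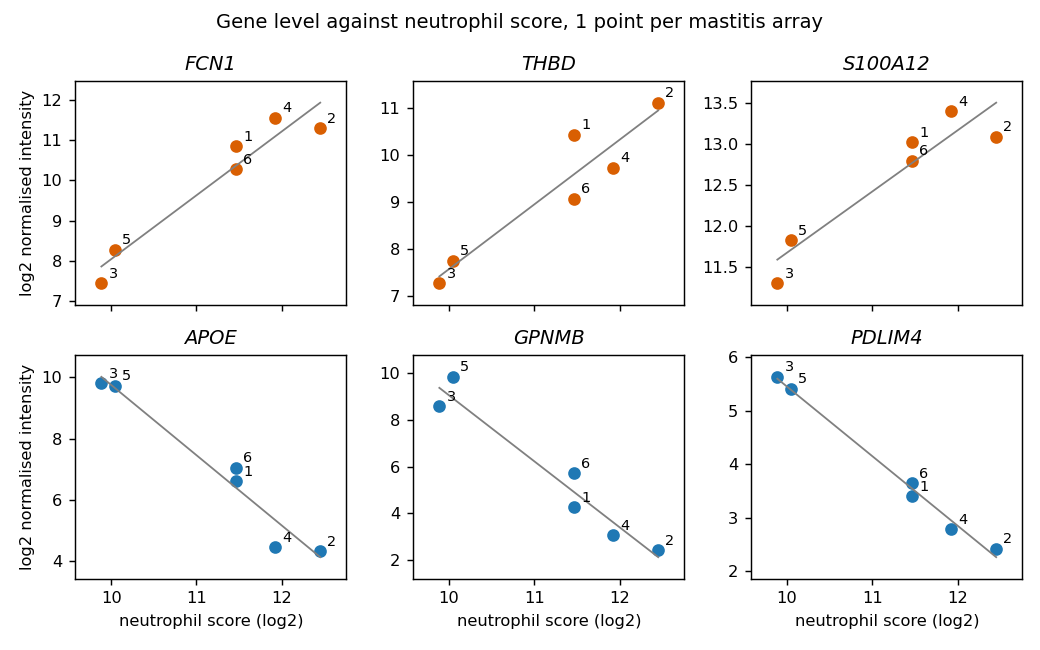
Log2 normalised intensity of 6 genes against the neutrophil score, 1 point per mastitis array with its number, and the fitted line. FCN1, THBD and S100A12 read lowest and APOE, GPNMB and PDLIM4 highest on mastitis 3 and 5, with no array at a score between 10.04 and 11.46.

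ACP5, the tartrate-resistant acid phosphatase, read 10.02, 6.87, 4.93, 4.40, 4.79 and 3.64. CTSK, the collagen-degrading cathepsin K, read 10.80, 9.54, 8.29, 7.26, 6.25 and 7.07. RARRES1, a membrane protein induced by retinoids, read 7.36, 5.87, 4.17, 3.33, 3.21 and 2.43. These genes and TM4SF1 separated mastitis 3 from mastitis 5, with mastitis 3 higher by 1.26 to 3.15. FOLR2 and VSIG4, a folate receptor and a complement receptor of resident macrophages, instead read higher on mastitis 5, at 7.12 and 6.86, than on mastitis 3, at 6.30 and 6.37. STMN1, a microtubule-destabilising protein of dividing cells, read 6.98, 7.15, 5.94, 3.97, 3.84 and 2.66. MMP19, a matrix metalloproteinase, read 9.71, 9.53, 8.43, 7.54, 5.91 and 7.27. Slopes over these 8 genes ran from -2.04 for ACP5 to -1.22 for MMP19, and none passed limma's threshold. After centring FOLR2 passed at an adjusted p of 0.0293 and VSIG4 at 0.0323. With arrays shifted to equal hybridisation controls ACP5 passed at 0.0263 and RARRES1 at 0.0393.

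In the wider gene lists 0 members passed limma's test over all genes, so the lists are described by their counts and medians. Over all genes, 64.7% of slopes were below 0, and 1.06% had a rho of at least 0.9 and 4.45% of at most -0.9. Among neutrophil markers outside the score, 20 of the 23 on the array passed the filter, 17 had a positive slope, and 3 had a rho of at least 0.9, namely S100A12, ALOX5AP and SORL1. Their median rho was 0.71 and their median slope 0.24, against -0.37 and -0.08 over all genes. With hybridisation controls the list's median rho was 0.11 and its median slope 0.19, against -0.26 and -0.15 over all genes. NFE2, a transcription factor of myeloid and erythroid precursors, had the steepest slope among them, 1.20 (SE 0.26), and read 5.79, 5.88, 8.53, 7.37, 7.23 and 9.22. NCF4, a cytosolic subunit of the phagocyte oxidase, read 6.89, 6.65, 8.03, 7.02, 8.32 and 8.39. TREM1, a receptor that amplifies inflammation, read 7.13, 7.32, 8.35, 9.09, 7.77 and 9.24. Some members with a positive slope hardly followed the score. LTF, the granule protein lactoferrin, had a rho of 0.09 and ranged from 4.11 to 7.37, and NCF1 had a rho of 0.14. The 3 members with a negative slope were MMP9, FCGR3A and ITGB2, at -0.65, -0.37 and -0.20. MMP9, a granule gelatinase, had a rho of -0.77. MPO, PGLYRP1 and GCA did not pass the filter, and MPO read at most 2.50 on any array.

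As a whole the 20 other neutrophil markers gave the cows a different order. Their mean was 6.11, 6.08, 6.24, 7.10, 6.90 and 6.72 in order of the score, with a Pearson r of 0.73 and a rho of 0.71 with it over 6 arrays. Mastitis 6 grouped with the low pair and mastitis 1 was highest. VNN2, a pantetheinase of neutrophils, and CXCR4, a chemokine receptor, were highest on mastitis 1, at 12.18 and 12.53. With this mean in place of the score, limma called 228 genes higher and 900 lower. The genes at a rho of at least 0.9 with this mean and with the score had 0 in common, and so did those at a rho of at most -0.9. For genes without tied values this was fixed by the different orders of the arrays. At a rho of 0.71 between the orders, no such gene can lie beyond 0.9 with both. The lack of shared genes therefore cannot show whether this mean and the score pick out different genes. With CXCR1 alone as the score, 102 genes had a rho of at least 0.9 and 457 of at most -0.9. Of these, 33 and 134 were shared with the 3-gene score. With S100A8 and S100A9 alone the counts were 45 and 140, of which 13 and 75 were shared. The call of PDLIM4 and ACSF2 was lost with each of these 3 scores.

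Of the 19 macrophage and monocyte markers on the array, 18 passed the filter and 17 of them had a negative slope, as had 64.7% of all genes. The list's median rho was -0.77 and its median slope -1.02, against -0.37 and -0.08 over all genes. The 6 members with a rho of at most -0.9, where 4.45% of all genes had one, were APOE, GPNMB, FABP4, CTSK, MSR1 and VSIG4. The complement genes C1QA, C1QB and C1QC, made by tissue macrophages, had a rho of -0.77 each and slopes of -1.66, -1.63 and -1.34. With arrays shifted to equal hybridisation controls all 3 passed, at limma adjusted p-values of 0.00913, 0.00913 and 0.0393. CD14 and CD68 had a rho near 0. CD14, the lipopolysaccharide co-receptor, read 10.54, 10.53, 11.02, 9.39, 9.34 and 12.01, with a rho of 0.03. CD68, a lysosomal protein of phagocytes, read 11.22, 11.31, 10.48, 12.53, 11.82 and 10.49, with a rho of 0.09. CSF1R, the receptor for macrophage colony-stimulating factor, had a rho of -0.66 and a slope of -0.42, and read between 4.24 and 6.40.

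The mean over the 18 macrophage genes was 8.94, 9.11, 7.52, 6.87, 6.30 and 6.57 in order of the score. The log2 of their summed linear values ran from 12.90 to 14.75 over the arrays, and only LYVE1, a marker of some resident macrophages and of lymphatic vessels, stayed at background throughout, at no more than 2.44. Both arrays of the low pair lay above the other 4 on this mean, mastitis 6 came next, and mastitis 4 read below mastitis 2. How far the macrophage genes account for the other negative slopes was not tested.

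**Figure D4:**
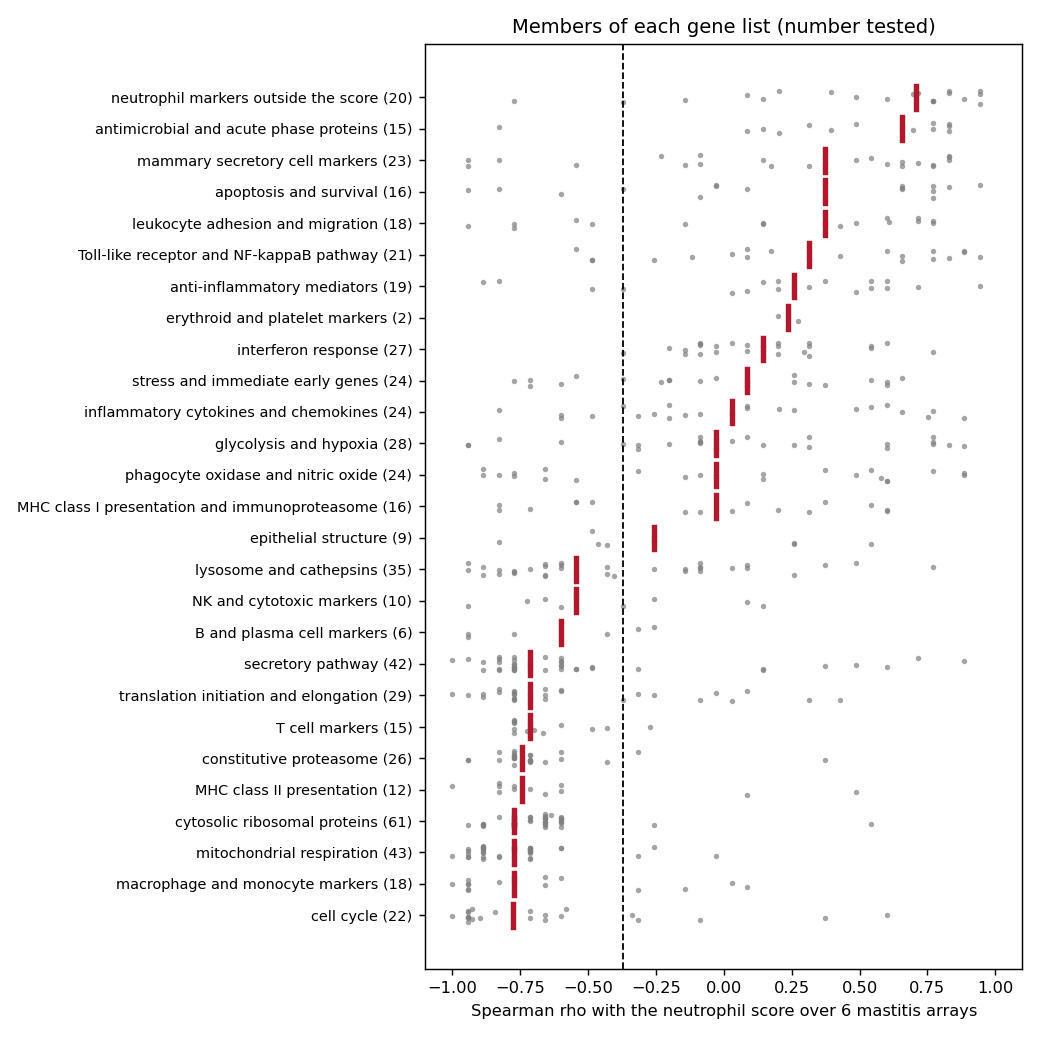
Spearman's rho with the neutrophil score over the 6 mastitis arrays for each tested member of 27 gene lists (grey points), with the list's median (red bar) and the median of all tested genes, -0.37 (dashed line). The median is 0.71 for neutrophil markers outside the score, which is 0.11 with hybridisation controls, and -0.77 for macrophage and monocyte markers, which is -0.63 with them. Over all tested genes the median with hybridisation controls is -0.26.

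Antigen presentation genes of class II read lower on arrays with a higher score. Of 12 tested members, 11 had a negative slope, as had 64.7% of all genes. The list's median rho was -0.74 and its median slope -0.52, against -0.37 and -0.08 over all genes. Only 1 member had a rho of at most -0.9, where 4.45% of all genes had one. With hybridisation controls the median rho was -0.37, against -0.26 over all genes. IFI30, a lysosomal thiol reductase that prepares antigens for loading, had a rho of -1 and read 9.50, 8.97, 8.74, 7.10, 6.93 and 6.79. BOLA-DQA2, a class II alpha chain, had the steepest slope of the list at -2.18, but its limma adjusted p was 0.22. The genes of this family vary in sequence between cows, so a difference in level and a difference in sequence under the probes cannot be told apart for them. Class I presentation genes had a median rho of -0.03 over 16 members. Their median slope of -0.03 changed sign with scaling, to 0.14 after centring and -0.22 with hybridisation controls.

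All 15 tested T cell markers had a negative slope, as had 64.7% of all genes, and 0 had a rho of at most -0.9. The list's median rho was -0.71, against -0.37 over all genes. With hybridisation controls it was -0.31, close to the -0.26 over all genes. CD3D, a chain of the T cell receptor complex, read 4.48, 6.07, 5.64, 2.94, 4.23 and 2.79. CD3G, another chain, read 5.21, 6.90, 6.19, 3.36, 4.92 and 2.45. T cell genes were thus highest on mastitis 5 and mastitis 6 and lowest on mastitis 2 and mastitis 1, an order other than that of the macrophage genes. CD4, CD6, CD7, CD28, CTLA4 and FOXP3 did not pass the filter, and CD4 read 2.43 on every array. Over the tested T cell genes the log2 of the summed linear values ran from 6.63 to 9.48. The 10 tested NK and cytotoxic markers had a median rho of -0.54 and 2 positive slopes, and their mean of 4.43, 5.14, 4.79, 3.64, 4.77 and 2.97 was higher on mastitis 6 and mastitis 4 than on mastitis 3. NKG7, a granule protein of cytotoxic cells, was the single member at a rho of at most -0.9 and read 5.21, 5.74, 4.57, 3.89, 3.46 and 3.17. For the 6 tested markers of B and plasma cells the median rho was -0.60, against -0.37 over all genes, and 1 slope was positive. After centring the list's median rho was -0.17, against 0.26 over all genes. Among them BLNK, an adaptor of the B cell receptor also found in myeloid cells, and IGHM, the heavy chain of immunoglobulin M, had a rho of -0.94, with slopes of -1.14 and -0.84.

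Of 23 tested mammary secretory markers 15 had a positive slope and 8 a negative one. The median rho was 0.37, against -0.37 over all genes. With hybridisation controls it was -0.03, against -0.26 over all genes. CSN2, the gene of beta-casein, read 6.37, 6.41, 7.24, 11.54, 8.25 and 8.69, and LALBA, the gene of alpha-lactalbumin, read 5.71, 5.81, 5.61, 11.09, 7.26 and 7.80. Mastitis 1 stood far above the other 5 arrays on both. Over the 4 higher-scoring arrays their Pearson r with the score was -0.21 and -0.14. CD36 and SCD, a fatty acid translocase and a desaturase, were the 2 members at a rho of at most -0.9, and CD36 read 10.96, 10.94, 10.04, 9.52, 7.54 and 9.19. Macrophages also express CD36. The keratins KRT8, KRT14, KRT17 and KRT18, which mark epithelial cells, did not pass the filter. The mean over the secretory list was 5.37, 5.35, 5.52, 7.19, 5.77 and 5.85, with mastitis 1 apart.

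**Figure D5:**
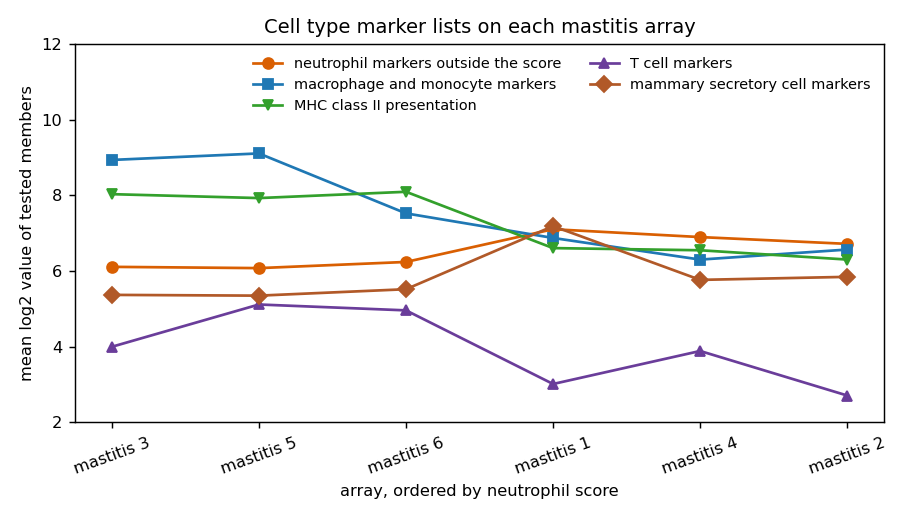
Mean log2 value of the tested members of 5 marker lists on each mastitis array, in order of the neutrophil score. The macrophage mean runs from 9.11 on mastitis 5 to 6.30 on mastitis 4, and the mammary secretory mean stands at 7.19 on mastitis 1 against 5.35 to 5.85 on the other arrays.

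Genes that sense bacteria leaned the other way from the median of all genes. The list of Toll-like receptors and NF-kappaB signalling had a median rho of 0.31 over 21 members, 15 of which had a positive slope. TLR2, the receptor for bacterial lipoproteins, had a rho of 0.94 and read 8.69, 8.77, 9.20, 9.95, 9.81 and 10.02. MYD88, the adaptor that links these receptors to NF-kappaB, had a rho of 0.89 and read 8.25, 8.11, 9.28, 9.99, 9.86 and 10.19. For both the 4 higher-scoring arrays lay above the low pair, although the slopes of 0.53 (limma adjusted p 0.11) and 0.84 (0.0748) did not pass. TLR4, the lipopolysaccharide receptor, had a rho of 0.66 and read between 8.56 and 10.43.

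Cytokines as a list had no common direction. The median rho was 0.03 over 24 members, with 13 positive and 11 negative slopes, and the median slope of 0.07 turned to -0.08 with hybridisation controls. CXCL8, the neutrophil attractant interleukin 8, was high on every array, at 12.27, 11.83, 12.66, 12.10, 12.58 and 12.89. Its slope was 0.29 (SE 0.12, limma adjusted p 0.22). IL1B read 10.10, 7.34, 9.52, 7.64, 7.72 and 9.38, so that mastitis 3 and mastitis 5, neighbours on the score, differed by more than 2 log2 units. TNF, an early cytokine of macrophages, had a negative slope of -0.66 and read 5.17, 5.58, 5.58, 3.54, 3.96 and 3.69. IL18 had the highest rho of the list, 0.89. Among anti-inflammatory genes, TNFRSF1B had a rho of 0.94, and IL1R2, a decoy receptor for interleukin 1, had the steepest slope of the list at 1.66 (limma adjusted p 0.13).

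Antimicrobial and acute phase genes had a median rho of 0.66 over 15 members, against -0.37 over all genes. Of these members 13 had a positive slope, where 64.7% of all slopes were below 0. With hybridisation controls the median rho was 0.14 and the median slope went from 0.18 to 0.08. Over all genes they were -0.26 and -0.15 in that setting. HP, the gene of haptoglobin, read 3.95, 5.59, 7.56, 6.07, 6.27 and 8.74, with a slope of 1.36 (SE 0.36, limma adjusted p 0.13). SAA3, the gene of a serum amyloid A protein made in the udder, read 5.42, 5.06, 7.34, 6.61, 7.83 and 6.81. The low pair read lowest on both genes. DEFB10, a defensin gene, had the steepest slope of the list at 1.54 (limma adjusted p 0.21) and a rho of 0.83. It read 4.27, 8.01, 8.32, 9.64, 10.58 and 8.73. TAP, another defensin gene, went the other way, with a rho of -0.83. CATHL1, a cathelicidin, read at most 3.70 on all arrays except mastitis 4, at 5.61. Interferon response genes did not follow the score, with a median rho of 0.14 over 27 members and 0 beyond 0.9 in either direction. ISG15, a ubiquitin-like protein induced by interferon, read 12.91, 12.48, 10.68, 12.62, 13.28 and 11.23.

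Genes of protein synthesis and respiration had mostly negative slopes. Of 61 ribosomal protein genes 60 had a negative slope, where 64.7% of all slopes were below 0. Their median rho was -0.77 and their median slope -0.52, against -0.37 and -0.08 over all genes. Only 1 of the 61 had a rho of at most -0.9, where 4.45% of all genes had one. Of 43 genes of mitochondrial respiration 42 had a negative slope, with a median rho of -0.77, a median slope of -0.52 and 6 members at a rho of at most -0.9. Their mean was 7.38, 7.54, 6.95, 6.19, 6.37 and 6.33 in order of the score. The median slope of each of these lists was -0.33 after centring and -0.59 and -0.58 with hybridisation controls for respiration and ribosomal proteins. With hybridisation controls the median rho was -0.49 for respiration and -0.26 for ribosomal proteins, and it was also -0.26 over all genes. UQCRFS1, the iron-sulfur subunit of complex III, had a rho of -1 and read 7.56, 7.47, 7.22, 6.73, 6.68 and 6.55. Proteasome subunits had a median rho of -0.74 over 26 members and secretory pathway genes of -0.71 over 42. In each of these last 2 lists, 2 members had a rho of at most -0.9, where 4.45% of all genes had one. For the secretory pathway this share is near that background.

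Cell cycle genes had a median rho of -0.78 over 22 members, against -0.37 over all genes. A rho of at most -0.9 was seen for 9 of them, where 4.45% of all genes had one. After centring the list's median rho was -0.26 and its median slope went from -0.33 to -0.16, against 0.26 and 0.07 over all genes after centring. The levels were low: CDK1, the kinase that drives entry into mitosis, read 3.48, 3.31, 2.87, 2.58, 2.48 and 2.46, close to background on mastitis 4 and mastitis 2. CKS2, its regulatory subunit, read 4.71, 5.06, 4.36, 2.78, 2.77 and 2.49. NUSAP1 and HMGB2 went against the list, with rho values of 0.37 and 0.60. Glycolysis genes, by contrast, had a median rho of -0.03 over 28 members, with 15 positive and 13 negative slopes. VEGFA, a growth factor induced by low oxygen, had the highest rho in that list, 0.89, and PFKL, a phosphofructokinase, was among the 2 at -0.94. A second probe set for VEGFA, with a mean of 8.69, had a rho of only 0.26.

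Measures of the arrays themselves did not pass a test along the score. Over 8 measures the smallest adjusted p was 0.344 in exact two-sided permutation tests, for the median of tested genes, which ran from 3.94 to 4.40 (n = 6, Pearson r = -0.827, raw p 0.0431, Spearman rho = -0.771, raw p 0.103). Over the 4 higher-scoring arrays its r was -0.28, so that this relation rests on the low pair. The hybridisation controls had an r of 0.49 and the GAPDH control's 3′ end minus its 5′ end an r of -0.29. The numbers in the sample titles were above 120 for mastitis 1 and mastitis 2 and below it for the rest. With this split as a block 0 genes fell, and the limma adjusted p of PDLIM4 and ACSF2 was 0.31, with slopes of -1.30 and -1.02 close to those without it. The first principal component of the tested genes held 53.2% of the variance and had an r of 0.81 with the score over the 6 arrays, and the second held 21.3% and set mastitis 2 apart.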

How the data were processed

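RNA of milk cells from 6 cows with mastitis was measured, 1 array per cow. Values were used as the authors deposited them, as log2 normalised intensity. Per the submitters' processing notes the tools were RMA, GCRMA and limma, without version or role, and the log base is read from the range of 2.43 to 14.2. Normalisation pulls arrays to a common distribution, so an overall shift in RNA is not measured. Depth has no meaning for arrays, and their number, 6, limits the precision.

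Of 24128 probe sets, 112 controls were left out, and 13292 had 1 gene symbol, 86 several and 10638 none. Of 9155 genes, 2913 had over 1 probe set, and the one with the highest mean over all 18 arrays was used. Symbols were checked against RefSeq genes of ARS-UCD2.0, with 0 updated. Slopes were fitted by limma's lmFit and eBayes (version 3.58.1, under R 4.3.3, with 4 residual and 1.67 prior degrees of freedom) over 6255 genes, called at an adjusted p under 0.05. On simulated data for this comparison over 6255 genes, limma recovered 24%, 72%, 88% and 96% of slopes of 0.5, 1, 2 and 3, and called 8 of 6055 unchanged genes. The simulation planted each slope in 50 genes and drew normal noise independently for each gene. Measured genes vary together, with 53.2% of their variance on the first principal component. The simulated shares therefore need not hold for the measured genes.

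Named genes are the 12 with the largest slope in each direction among genes with a rho beyond 0.9 and at least 4 arrays above 2.55, up to 3 members of each of 27 lists by rho, the tested neutrophil markers, the 8 most like the score and a fixed set of immune and milk genes, of which CD74 and IFIT1 were not tested. Members of lists named outside this rule were chosen after their values were seen. The members and lists were chosen with earlier results of these data known. Alternatives changed the score, the scaling, the floor, the filter, the probe sets, the test, the covariates and the arrays.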

Additional observations from a re-analysis of the deposited data

Results flagged for a closer look

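Among 147 items examined on the 6 arrays, 4 had a single array far from the other 5 by Dixon's 95% criterion, which chance meets in about 1 of 20 items. CXCR4 read 12.53 on mastitis 1, against 10.10 on the next array. ITGAM, the alpha chain of an integrin of phagocytes, read 4.04 on mastitis 2, against 3.04. CATHL2, a cathelicidin of granules, read 3.32 on mastitis 4, against 2.74. HBB, the beta chain of haemoglobin, read 3.05 on mastitis 6, against 2.56. The 4 genes stood out on 4 different arrays.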

How the results depend on the processing

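The calls rest on 6 arrays. The count of 2 genes that fell became 0 with CXCR1 alone, with S100A8 and S100A9 alone, with the GAPDH control difference as a term, with the title number as a block and without the 2 lowest-scoring arrays, 1 with unmoderated least squares, 5 with hybridisation controls, 9 with a mean at least 1 above the median, 10 after centring and 900 with the other neutrophil markers as score. The count of 0 genes that rose became 1, 3 and 228 under the last 3 of these. Leaving out 1 array gave 0 to 0 genes that rose and 0 to 1 that fell, and put 2.80% to 6.80% of genes at a rho of at least 0.9 and 8.43% to 18.7% at most -0.9, where 5 arrays allow fewer orders than 6.

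The share of genes at a rho of at least 0.9, 1.06% (66 genes), became 1.63% with CXCR1 alone, 2.49% with the other markers, 2.96% after centring, 0.448% with hybridisation controls, 1.98% (243 probe sets) over all probe sets and 2.12% without the 2 lowest-scoring arrays. The share at a rho of at most -0.9, 4.45% (278 genes), became 7.31% with CXCR1 alone, 2.24% with the S100 genes alone, 10.5% with the other markers, 2.11% after centring, 0.192% with hybridisation controls and 4.15% (164 genes) with the stricter filter. Apart from the fewer genes or arrays that some settings hold by construction, the cause was not tested.

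Of 2140 slopes of named genes over these settings, 2092 kept their direction and 48, none of them called, did not. Of 35 other probe sets of named genes above the filter, 1 for NKG7 did not vary (range under 0.001), and the other 34 had the same sign of slope as the one used. Over the 4 higher-scoring arrays, 62.0% of all tested genes kept the sign of their slope and limma called 0. No paired analysis was possible because a single group was studied.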

Other observations

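Some genes differed widely between the 6 cows without following the score. These were the genes with the largest SD among those with a rho between -0.3 and 0.3, and they are given as values in the order mastitis 3, 5, 6, 1, 4 and 2. RSAD2, an antiviral protein induced by interferon, read 8.87, 9.33, 6.58, 10.02, 11.73 and 7.32. CCL5, a chemokine for T cells, read 6.88, 7.92, 8.54, 8.43, 10.57 and 5.35. Both were highest on mastitis 4. GBP5, a guanylate-binding protein also induced by interferon, read 2.91 on mastitis 6 and 6.59 to 8.34 on the others.

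Others were highest on mastitis 2, mastitis 3 or mastitis 6. CXCL5, a neutrophil attractant, read 9.25, 9.14, 9.09, 6.49, 8.22 and 11.75. AREG, a ligand of the epidermal growth factor receptor, read 9.33, 6.38, 8.25, 6.68, 8.17 and 10.77. EDN1, the vasoconstrictor endothelin, read 8.71, 4.01, 5.75, 3.78, 4.59 and 6.90. THBS1, an adhesive matrix protein, read 5.02, 3.34, 7.50, 2.75, 2.50 and 7.49. Mastitis 1 and mastitis 5 were the lowest 2 arrays for EDN1 and AREG, although their scores were 11.46 and 10.04.

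PRSS2, a trypsin gene, and the class I gene BOLA-N went from background to high levels. PRSS2 read 2.43 on mastitis 5 and mastitis 2 and 7.74 to 9.96 on the other 4 arrays. BOLA-N read 2.43 on mastitis 5 and 6.23 to 8.50 on the others. NUPR1, a stress-induced chromatin protein, ranged from 5.27 on mastitis 2 to 11.53 on mastitis 1.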
